A study of Homo sapiens with 8 samples.

Results

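The genes described here are 35 targets that p53 is known to switch on, measured in LNCaP cells after transfection with an siRNA against GATA2. They were chosen by name as known p53 targets, by a rule that uses no measured value, though with earlier results of these arrays known, and all 35 were among the 28850 genes tested. LNCaP is a human prostate cancer line grown from a lymph node metastasis, and GATA2 is a zinc finger transcription factor. The study asked which transcripts move when GATA2 is silenced. Cultures kept in RPMI-1640 with serum received siGATA2 or siControl, a scrambled siRNA, each at 30 nM, and total RNA was hybridized 72 h later to 4 one-colour arrays per group. The labels give no difference between the groups other than the siRNA. The labels do not say whether the arrays of a group came from separate cultures. The p-values thus measure the spread between these arrays, which may be technical. Arrays 1 and 2 labelled siGATA2 correlated at 0.997 over genes and arrays 3 and 4 at 0.995, against 0.977 to 0.980 across these pairs. In siControl arrays 2 and 4 correlated at 0.995 and the other pairs at 0.961 to 0.976. The 4 arrays of a group may therefore not be 4 independent samples, which was not tested. RNA came from whole cultures, so less signal in every cell and a loss from some cells cannot be told apart.

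p53 is a transcription factor that cells stabilize after DNA damage and other stress, and LNCaP cells are known to keep a functional form of it. It binds paired copies of a short sequence, the half-site, near its targets, and these encode proteins that stop the cell cycle, repair DNA, retune metabolism or start apoptosis. Several targets, MDM2 first among them, feed back on p53 and limit its activity.

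Between 23982 and 36702 probes were well above background on each array, with the fewest on siControl arrays 3 and 1. No member had a missing value, and all 35 probes were well above background on all 8 arrays except that of CMBL, which was so on 3 of 4 siControl arrays. The signal of GATA2 itself, read from 1 probe, did not follow the labels. On the log2 scale it ranged from 11.40 to 12.61 where the label was siGATA2 and from 11.10 to 11.74 where it was siControl, a log2 fold change of 0.68 (SE 0.312, adjusted p = 0.154). Array weights gave 1.11, called higher (adjusted p = 0.00182), and a grouping of GATA2 values by sample title as a block gave 0.47, also called (adjusted p = 0.0261). These were the only 2 of the 24 alternative settings that called GATA2. Over the 24 settings its log2 fold change ran from 0.03, with scaling to spiked-in control RNA, to 1.11. Every direction given below therefore rests on the labels. The luminal markers KLK3, KLK2, KRT8 and KRT18 were well above background on all 8 arrays. KLK3 (-1.63, adjusted p = 0.0321) and KLK2 (-1.84, adjusted p = 0.00372) were called lower on the arrays labelled siGATA2. KRT8 was called higher (0.56, adjusted p = 0.0283), and KRT18 was not called (0.19). Of 6 fibroblast markers, COL3A1 and LUM were too dim to be tested and COL1A2 rose well above background on none of the 8 arrays. PDGFRB was lower on the arrays labelled siGATA2 (-2.83, adjusted p = 0.000770). It was dim, and well above background on only 2 of 4 arrays labelled siGATA2 and 3 of 4 siControl arrays. The summed signal of the 4 fibroblast markers tested ran from 8.70 to 9.73 on the log2 scale on the arrays labelled siGATA2 and from 9.26 to 10.03 in siControl. Most of it came from COL1A1, which ran from 8.52 to 9.63 against 8.84 to 9.84 and was not called (-0.13). Of 4 leukocyte markers PTPRC was higher (0.87, adjusted p = 0.00138), and their summed signal ran from 12.76 to 13.77 against 12.52 to 13.32. Most of that sum came from CD79A, which ran from 12.59 to 13.68 against 12.38 to 13.23 and was not called (0.46). Among the basal markers KRT5 was too dim to be tested, KRT14 and KRT15 were not called, and their sum ran from 9.31 to 9.60 against 9.22 to 9.60. The part of these markers in the results below was not tested.

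Most p53 targets were lower on the arrays labelled siGATA2. With a Benjamini-Hochberg adjusted p under 0.05 from limma as the call, 21 of the 35 genes were lower, 1 was higher and 13 were not called. Among all genes tested 14.2% were called lower and 12.3% higher, and among those with a gene symbol, which all members have, 19.0% were lower. A fall of at least 2-fold was called for 15 members, against 7.13% of all genes and 9.64% of those with a symbol. The log2 fold change of a member was below 0 for 30 genes and above 0 for 5, with a median of -0.79 where the median over all genes was 0.09. All siGATA2 values lay below all siControl values for 20 members, as they did for 16.5% of all genes, and above them for 2, as they did for 16.2%. Every functional class had members called lower, from 2 of 5 feedback regulators to 4 of 5 repair genes. These counts and medians describe the list, since the genes of a pathway do not vary independently.

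**Figure D1:**
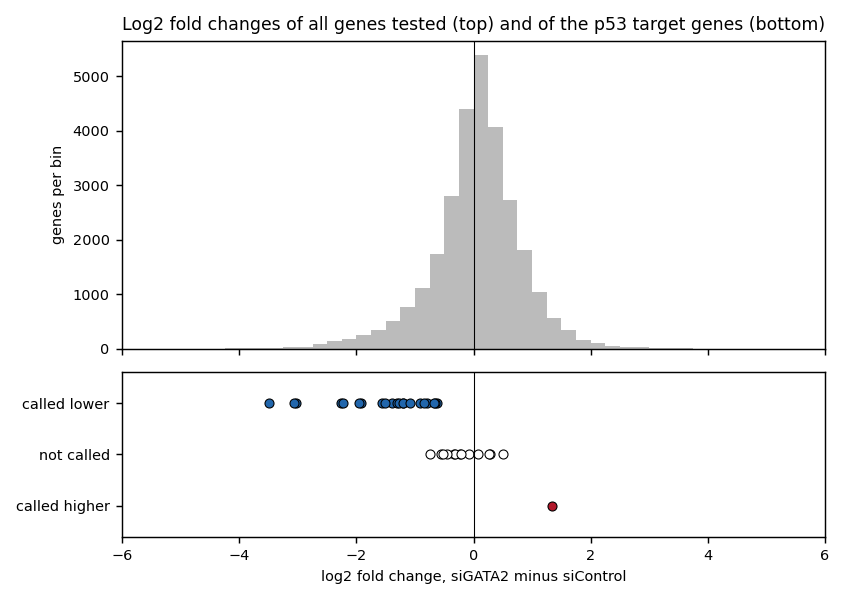
Log2 fold changes, siGATA2 minus siControl, of all 28850 genes tested as a histogram of gene numbers (top) and of the 35 p53 target genes as points sorted by call (bottom). The 21 members called lower lie between -3.49 and -0.62, the 13 not called between -0.74 and 0.51, and the single one called higher at 1.34.

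Promoter sequences were compared because the members were chosen as p53 targets and most of them were lower. RefSeq promoters (GRCh38.p14, from 250 bases before to 50 bases after the start of transcription) were found for 26 of the 35 genes. None was used for FBXO22, TNFRSF10A, TNFRSF10B, PHLDA3, TP53INP1, RRM2B, ASCC3, GADD45A and CMBL. A p53 half-site of 10 bases, which reads the same on both strands, occurred in 7 of the 26 promoters (26.9%) and in 8.06% of the 27305 genes in the table, a gene being counted when any of its promoters held one. Since binding by p53 is part of why a gene counts as a target, that difference bears on how the members were chosen. The 7 genes were FAS, AEN, RPS27L, DDB2, PLK2, SESN1 and FDXR, and all 7 were called lower. They made up 7 of the 17 lower members with a promoter, whereas none of the 9 other members with a promoter held a half-site. Whether holding a half-site goes with being called lower was not tested. The sequences around these half-sites are shown for all 7 genes, as the strand of the gene reads from 5′ to 3′, with the half-sites in capitals and none of the transcribed part beyond the half-sites themselves.
FAS, chr10:88991279-88991348, plus strand: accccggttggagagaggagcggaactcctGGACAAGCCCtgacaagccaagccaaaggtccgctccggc
AEN, chr15:88621276-88621339, plus strand: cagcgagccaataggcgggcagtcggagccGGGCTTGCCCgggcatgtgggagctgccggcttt
RPS27L, chr15:63157497-63157566, minus strand: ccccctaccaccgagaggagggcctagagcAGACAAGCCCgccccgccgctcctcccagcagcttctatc
DDB2, chr11:47214979-47214999, plus strand: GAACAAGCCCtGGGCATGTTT
PLK2, chr5:58460179-58460248, minus strand: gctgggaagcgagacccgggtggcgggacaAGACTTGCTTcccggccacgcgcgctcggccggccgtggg
SESN1, chr6:109008998-109009067, minus strand: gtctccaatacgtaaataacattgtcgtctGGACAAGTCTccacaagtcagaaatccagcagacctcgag
FDXR, chr17:74872995-74873035, minus strand: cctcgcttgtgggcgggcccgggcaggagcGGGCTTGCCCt

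The half-site began 122 bases before the start of transcription in FAS, 132 in PLK2, 59 in RPS27L, 49 in SESN1, 34 in AEN and 11 in FDXR, and 6 bases after it in DDB2. DDB2 was the only member whose promoter held 2 half-sites in the arrangement of a full p53 element, here 1 base apart, and 10 of the 27305 genes held one (0.0366%) when up to 13 bases were allowed between the half-sites. A match describes the letters in this window, and half-sites farther away, such as those in first introns, were outside it. Other motifs were searched on both strands for comparison. CACGTG was present in 3 of the 26 members against 8.77% of all genes in the table, and CCAAT in 12 of 26 against 39.7%. Either AGATAA or TGATAA, which are only some of the forms that GATA factors bind, was present in 3 of 26 against 19.4%. Other GATA forms were not searched. The genes with AGATAA or TGATAA were MDM4, CCNG1 and PLK3, of which CCNG1 and PLK3 were called lower.

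**Figure D2:**
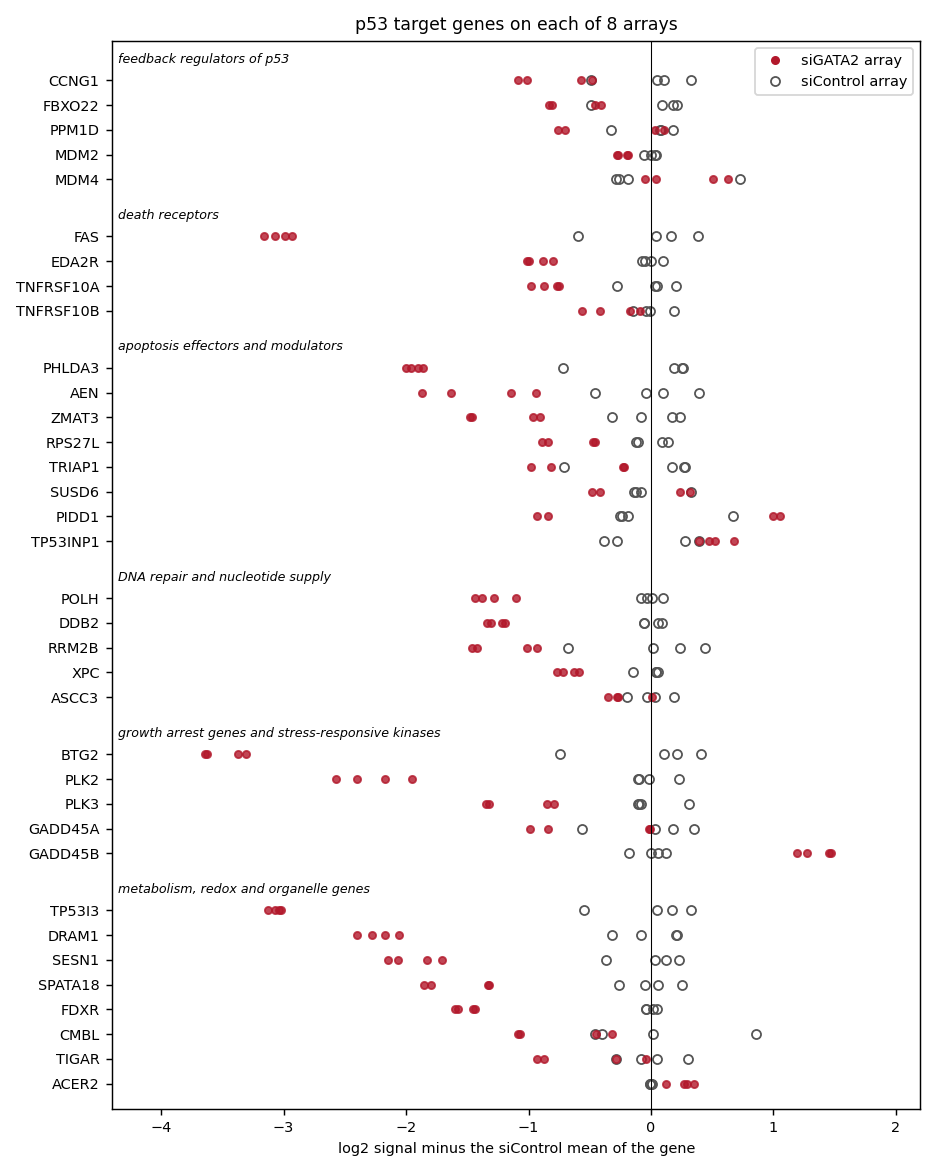
Log2 signal of each of the 35 p53 target genes on each of the 8 arrays, as the difference from the gene's siControl mean, in functional classes and sorted within them by mean change. Filled points are the 4 arrays labelled siGATA2 and open points the 4 siControl arrays. For FAS, BTG2 and TP53I3 the filled points lie about 3 log2 units below the open ones, and GADD45B alone has all filled points more than 1 unit above.

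The feedback regulators of p53 had the median nearest to 0. Of 5 genes, CCNG1 and FBXO22 were called lower, MDM2, MDM4 and PPM1D were not called, and the median log2 fold change was -0.33. With the mean over the probes of a gene this median was -0.60, close to the -0.61 of the apoptosis effectors and modulators. CCNG1 encodes cyclin G1, which brings a phosphatase to MDM2. Its log2 signal was 11.93, 12.01, 12.54 and 12.45 on siGATA2-labelled arrays 1 to 4, against 12.53, 13.35, 13.07 and 13.13 on siControl arrays 1 to 4, a log2 fold change of -0.79 (SE 0.219, adjusted p = 0.0321). The groups met at siControl array 1. FBXO22, the substrate-binding subunit of a ubiquitin ligase that acts on p53, was at 11.64, 11.66, 12.06 and 12.01 against 11.98, 12.65, 12.56 and 12.68, with a log2 fold change of -0.62 (SE 0.193, adjusted p = 0.0476). Here too siControl array 1 lay within the range of the other group, and the adjusted p was close to the threshold. Both calls were lost when the arrays were scaled to spiked-in control RNA and when single arrays were left out.

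MDM2, the ubiquitin ligase that marks p53 for degradation, was singled out after its values were seen because its 4 probes differed. The brightest of them, which stood for the gene, read 10.39, 10.30, 10.31 and 10.38 on the arrays labelled siGATA2 and 10.52, 10.61, 10.58 and 10.62 in siControl. These groups did not overlap, but the difference of -0.23 (SE 0.0873) was not called (adjusted p = 0.0878). Another MDM2 probe fell by 1.07 on the log2 scale (SE 0.125, adjusted p = 0.000514 over all probes), from values of 10.48 to 10.74 down to 9.36 to 9.69, and a further one fell by 0.73 (SE 0.188, adjusted p = 0.0232). With the mean over the probes of a gene in place of the brightest one, MDM2 was called lower, at -0.60. The log2 fold changes of the MDM2 probes thus ran from -1.07 to -0.23, and which transcripts each of them reads is not given by the files. MDM4, the partner of MDM2 that holds p53 inactive, had 4 probes between 0.09 and 0.28 on the log2 scale, none of them called. PPM1D, the WIP1 phosphatase that ends the damage response, had a log2 fold change of -0.33 (SE 0.241, adjusted p = 0.357).

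Death receptors lay lower, with 3 of 4 called and a median log2 fold change of -0.88. FAS, the receptor for FAS ligand, was at 7.76, 7.70, 7.62 and 7.53 on the arrays labelled siGATA2 and at 10.09, 11.07, 10.73 and 10.85 in siControl. The groups were far apart, and the mean of 7.65 ± 0.101 (SD, n = 4) against 10.69 ± 0.420 (SD, n = 4) made FAS 8.18-fold lower (log2 fold change -3.03, SE 0.206, adjusted p = 4.39e-05). The 2 other FAS probes gave -3.08 and -3.19 and were called as well. EDA2R, a receptor for ectodysplasin A2, was at 8.48, 8.49, 8.69 and 8.61 against 9.44, 9.59, 9.49 and 9.42. Its change of -0.92 (SE 0.0990, adjusted p = 0.000352) came with groups that did not overlap, although a second, dimmer probe gave -0.28 and was not called.

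The receptors for TRAIL had smaller log2 fold changes than FAS. TNFRSF10A was at 9.51, 9.41, 9.53 and 9.30 against 10.48, 10.33, 10.00 and 10.31, a log2 fold change of -0.84 (SE 0.130, adjusted p = 0.00218) with no overlap. TNFRSF10B, the brighter signal of the pair, had a log2 fold change of -0.31 (SE 0.140) and was not called (adjusted p = 0.151). Whether these receptors and FAS changed by different amounts was not tested.

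Among the apoptosis effectors and modulators 4 of 8 genes were called lower, 4 were not called, and the median log2 fold change was -0.61. PHLDA3, which blocks membrane recruitment of AKT, read 10.63, 10.59, 10.53 and 10.49 on the arrays labelled siGATA2 and 11.77, 12.74, 12.68 and 12.75 in siControl. It was 3.80-fold lower (log2 fold change -1.93, SE 0.226, adjusted p = 0.000547), and the siControl spread came mainly from array 1. AEN, a nuclease that helps to fragment DNA in dying cells, was at 9.64, 9.88, 10.37 and 10.57 against 11.05, 11.61, 11.47 and 11.90. Its log2 fold change was -1.39 (SE 0.256, adjusted p = 0.00518), the groups did not overlap, and a second probe gave -1.28. ZMAT3, a zinc finger protein that binds RNA, was at 9.23, 9.21, 9.78 and 9.73 against 10.37, 10.93, 10.61 and 10.86, a log2 fold change of -1.21 (SE 0.193, adjusted p = 0.00261). In both AEN and ZMAT3 arrays 1 and 2 labelled siGATA2 were the lowest of the 8. RPS27L, a ribosomal protein related to RPS27, was the fourth called member of the class, at -0.66 (SE 0.143, adjusted p = 0.0107).

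The other 4 members of that class were not called. TRIAP1, a mitochondrial protein that restrains apoptosis, had a log2 fold change of -0.56, and SUSD6, a membrane protein, one of -0.08. TP53INP1, a stress protein that promotes phosphorylation of p53 and autophagy, stood at 0.51 (SE 0.196, adjusted p = 0.0940), and its second probe, at 0.49 (SE 0.117, adjusted p = 0.0166), was called higher. PIDD1, the scaffold of the complex that activates caspase-2, was singled out after its values were seen. It read 14.76, 14.81, 12.83 and 12.92 on siGATA2-labelled arrays 1 to 4, against 14.43, 13.57, 13.51 and 13.52 on siControl arrays 1 to 4. The log2 fold change was 0.07 (SE 0.527), with arrays 1 and 2 of the siGATA2 label above every siControl array and arrays 3 and 4 below all of them.

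Genes of DNA repair and nucleotide supply were mostly lower, with 4 of 5 called and a median log2 fold change of -1.21. POLH, the polymerase that copies across ultraviolet lesions, read 9.34, 9.16, 9.00 and 9.06 on the arrays labelled siGATA2 and 10.41, 10.45, 10.54 and 10.36 in siControl. The groups were well separated (log2 fold change -1.30, SE 0.110, adjusted p = 0.000111). DDB2, the sensor of ultraviolet damage whose promoter held the full p53 element, was at 12.23, 12.20, 12.32 and 12.35 against 13.48, 13.63, 13.48 and 13.60. With means of 12.28 ± 0.0706 (SD, n = 4) and 13.54 ± 0.0808 (SD, n = 4) it was among the least variable members, at a log2 fold change of -1.27 (SE 0.0950, adjusted p = 6.74e-05). RRM2B, the subunit of ribonucleotide reductase that p53 induces, was at 9.21, 9.17, 9.62 and 9.70 against 9.95, 11.07, 10.65 and 10.87. Its log2 fold change was -1.21 (SE 0.259, adjusted p = 0.0105) and the groups did not overlap, although siControl array 1 lay nearer to the other group. XPC, which recognizes helix distortions, was lower by a smaller amount (-0.67, SE 0.101, adjusted p = 0.00184). ASCC3, a helicase of alkylation repair and of stalled ribosomes, was not called (-0.22, adjusted p = 0.247).

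The growth arrest genes and stress-responsive kinases held both the largest fall among the members and the only rise. Of 5 genes 3 were called lower, 1 was called higher, and the median log2 fold change was -1.08. BTG2, an antiproliferative protein that recruits the deadenylation machinery to mRNA, was at 10.29, 10.30, 10.62 and 10.56 on the arrays labelled siGATA2 and at 13.19, 14.34, 14.04 and 14.14 in siControl. Its mean of 10.44 ± 0.172 (SD, n = 4) was 11.2-fold below the siControl mean of 13.93 ± 0.509 (SD, n = 4), a log2 fold change of -3.49 (SE 0.249, adjusted p = 5.42e-05). PLK2, a polo-like kinase of centriole duplication with a half-site in its promoter, was at 10.62, 10.79, 11.02 and 11.24 against 13.42, 13.17, 13.09 and 13.08. The log2 fold change was -2.27 (SE 0.160, adjusted p = 4.99e-05), and no siGATA2 value came within 1 unit of a siControl value. PLK3, a related kinase, was also lower, at -1.08 (SE 0.179, adjusted p = 0.00305).

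GADD45B and GADD45A encode related stress sensors that bind the kinase MAP3K4. GADD45B read 12.84, 12.92, 13.10 and 13.12 on the arrays labelled siGATA2 and 11.77, 11.65, 11.71 and 11.47 in siControl. It was the 1 member called higher, by 2.53-fold (log2 fold change 1.34, SE 0.116, adjusted p = 0.000129), with no overlap. Scaled instead to E1A spike-ins, RNA added in equal amounts at labelling, the same gene stood at 0.70 and was not called (adjusted p = 0.509). With siControl array 1 left out, that scaling called it higher, at 1.12 (adjusted p = 0.00520). GADD45A had a log2 fold change of -0.46 (SE 0.300, adjusted p = 0.299).

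Metabolism, redox and organelle genes had the lowest median of the classes, -1.54, with 5 of 8 called lower, each by at least 2-fold. TP53I3, a quinone oxidoreductase, was at 8.40, 8.34, 8.43 and 8.45 on the arrays labelled siGATA2 and at 10.92, 11.80, 11.52 and 11.64 in siControl. It was 8.35-fold lower (log2 fold change -3.06, SE 0.189, adjusted p = 3.03e-05), and its siGATA2 values had an SD of 0.0486 (n = 4). DRAM1, a lysosomal protein of autophagy, was at 9.30, 9.19, 8.96 and 9.08 against 11.04, 11.56, 11.28 and 11.57, a log2 fold change of -2.23 (SE 0.151, adjusted p = 4.37e-05). SESN1, a sestrin that restrains mTORC1, was at 10.20, 10.28, 10.64 and 10.52 against 11.98, 12.58, 12.38 and 12.47, with a log2 fold change of -1.95 (SE 0.167, adjusted p = 0.000119). The groups of all 3 genes were separated by more than 1 log2 unit.

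Mitochondrial members of the class were lower too. SPATA18, which takes part in the quality control of mitochondria, had a log2 fold change of -1.57 (SE 0.178, adjusted p = 0.000459), and FDXR, the reductase that passes electrons to ferredoxin, one of -1.51 (SE 0.0922, adjusted p = 2.93e-05). TIGAR, a bisphosphatase that lowers glycolytic flux (-0.53, adjusted p = 0.142), and CMBL, a hydrolase (-0.74, adjusted p = 0.146), were not called. ACER2, a ceramidase of the Golgi, was singled out after its values were seen. Its brightest probe read 8.34, 8.51, 8.57 and 8.49 on the arrays labelled siGATA2 and 8.23, 8.22, 8.21 and 8.21 in siControl, all 4 above all 4, but its log2 fold change of 0.26 (SE 0.0928) was not called (adjusted p = 0.0743). A second ACER2 probe stood at 1.00 (SE 0.176, adjusted p = 0.00409) and was called higher.

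**Figure D3:**
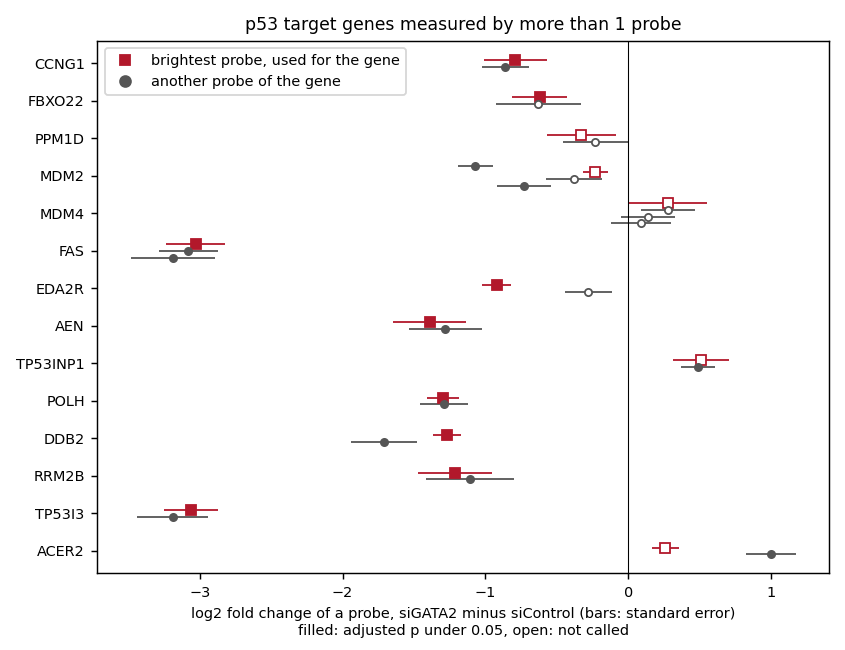
Log2 fold change, siGATA2 minus siControl, with its standard error for each probe of the 14 members that had more than 1 probe, squares for the brightest probe and circles for the others. Filled symbols had an adjusted p under 0.05 over all probes. The probes of FAS, TP53I3, POLH and RRM2B lie close together, and those of MDM2, EDA2R and ACER2 apart.

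In all, 14 members had more than 1 probe on the array. None of them had a probe called against the direction of a called brightest probe. The titles of the samples carry a letter whose meaning the labels do not give, A and B on arrays 1 and 2 labelled siGATA2 and on siControl array 1, and D to G on the other 5 arrays. This grouping, used as a block after the data were seen, crossed the siRNA groups, so that members could be compared within it. Within both letter groups 30 members were lower and 3 were higher on the arrays labelled siGATA2, and MDM4 and PIDD1 had opposite signs. The share of all genes with the same sign in both letter groups was not computed. PIDD1 differed by 0.35 between siRNAs under the letters A and B and by -0.66 under D to G. MDM4 differed by -0.16 and 0.24. The A and B group held 1 siControl array, so its differences have no spread of their own. That array, siControl array 1, had the lowest E1A spike-in signal of the 8 arrays (11.13 on the log2 scale).

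**Figure D4:**
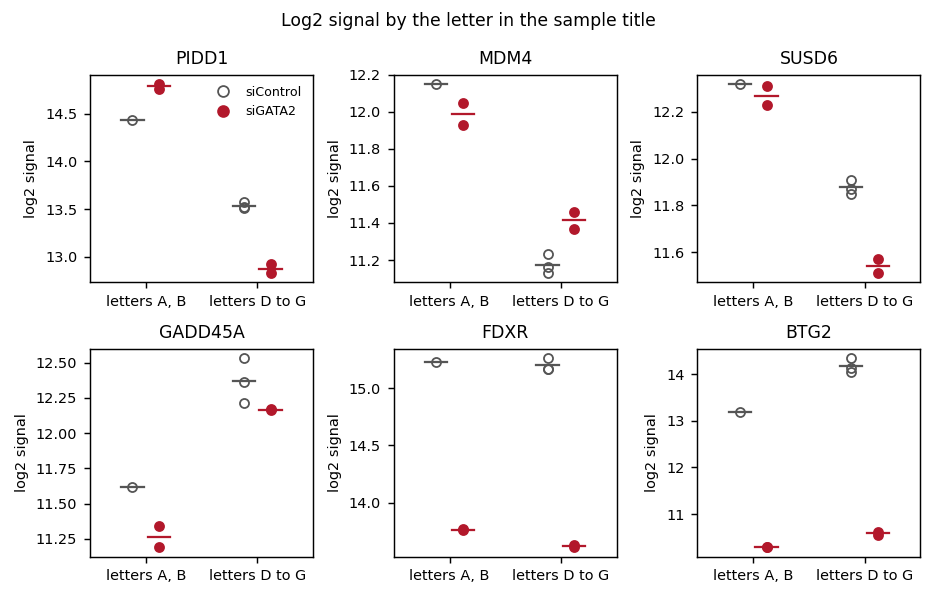
Log2 signal of 6 p53 target genes on each array, split by the letter in the sample title, with open points for siControl, filled points for siGATA2 and bars for the means. PIDD1, MDM4, SUSD6 and GADD45A differ more between the letters than between the siRNAs, while FDXR and BTG2 differ mainly between the siRNAs.

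With the letter group as a block, 25 members were called lower and 3 higher, where 20.0% of all genes were lower and 24.9% higher. The median log2 fold change of the members was then -0.67. MDM2 (-0.23), TNFRSF10B (-0.39), TRIAP1 (-0.36) and TIGAR (-0.38) were lower under the block and TP53INP1 (0.59) and ACER2 (0.28) joined GADD45B (1.36) as higher. Every member called without the block was called in the same direction with it. The block leaves mainly the spread between arrays with the same siRNA and letter group, among them the closely correlated pairs. Its p-values may thus rest on technical spread, which was not tested.

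Scaling to the E1A spike-ins moved the median of all genes from 0.09 to -0.43, and without siControl array 1 this median was -0.00. Under this scaling the members had a median of -1.43, and limma called 14 lower, where 6.59% of all genes were called lower, and 0 higher. At an unadjusted p under 0.05 the members numbered 25 lower and 0 higher. The share of all genes at that unadjusted threshold was not computed, so counts at it have no baseline here. The log2 E1A signal averaged 11.13 for siControl array 1 and lay between 13.45 and 13.83 on the other 7 arrays. The 14 genes were FAS, PHLDA3, AEN, ZMAT3, POLH, DDB2, RRM2B, BTG2, PLK2, TP53I3, DRAM1, SESN1, SPATA18 and FDXR, and these genes were called lower in each of the 24 alternative settings. By class they numbered 0 of 5 feedback regulators (2 at an unadjusted p under 0.05), 1 of 4 death receptors, 3 of 8 apoptosis genes, 3 of 5 repair genes, 2 of 5 growth arrest genes and kinases, and 5 of 8 metabolism and organelle genes. Without siControl array 1, the same scaling called 22 members lower and 1 higher, where 15.1% of all genes were lower and 6.20% higher, and the median of the members was -1.06.

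**Figure D5:**
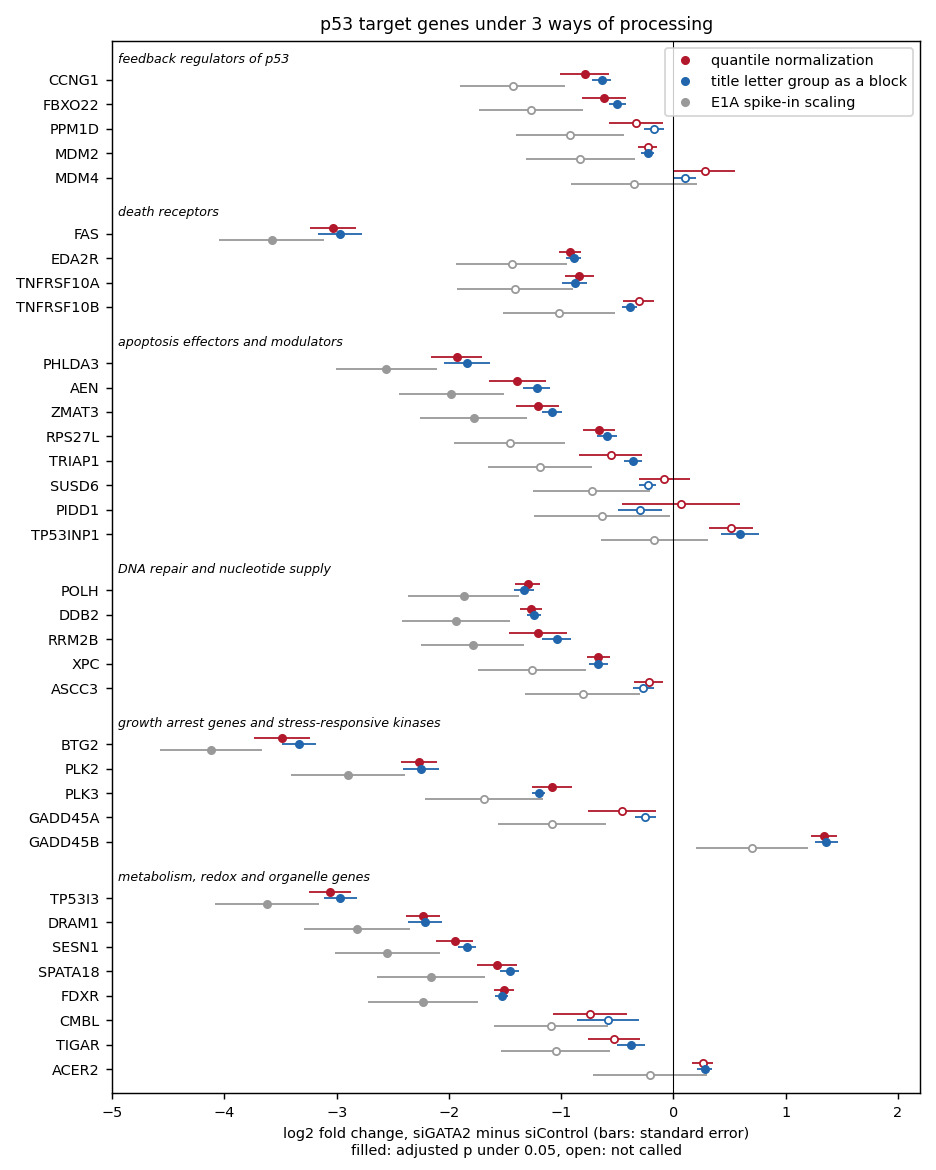
Log2 fold change, siGATA2 minus siControl, with its standard error for each of the 35 p53 target genes under quantile normalization (red), with the title letter group as a block (blue) and with E1A spike-in scaling (grey). Filled points had an adjusted p under 0.05. Spike-in scaling shifts every gene to the left and widens its error, so that 14 genes remain filled on the lower side and none on the higher side.

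A wider list of 23 other genes that p53 can induce, 22 of them tested, was read beside the members. Of these 9 were lower and 2 higher, 7 of the lower ones by at least 2-fold, and their median log2 fold change was -0.44, beside the 14.2% of all genes called lower, 12.3% called higher and 7.13% lower by at least 2-fold. The share called higher was thus no larger than over all genes. CDKN1A, the cell cycle inhibitor p21 and the best known p53 target, was not called. It read 9.61, 10.06, 10.84 and 10.87 on the arrays labelled siGATA2 and 9.55, 10.41, 10.30 and 10.53 in siControl, so that the groups overlapped, and its log2 fold change was 0.15 (SE 0.343, adjusted p = 0.773). Under the letter block CDKN1A was called higher, at 0.39, and under spike-in scaling it stood at -0.42 and was not called. SERPINB5, the serpin maspin, was at 6.67, 6.61, 7.31 and 7.38 against 9.73, 10.49, 10.30 and 10.36 (log2 fold change -3.23, SE 0.245, adjusted p = 7.37e-05). PMAIP1, the BH3-only protein NOXA, was at 7.17, 6.96, 8.01 and 7.80 against 9.41, 9.92, 9.54 and 9.69 (-2.16, SE 0.252, adjusted p = 0.000533). CDIP1, a membrane protein of cell death, was at 12.61, 12.33, 12.07 and 12.15 against 14.24, 14.29, 14.18 and 14.21 (-1.94, SE 0.136, adjusted p = 4.94e-05). The mean over the 2 probes of CDIP1 gave a smaller fall, -1.06, which was also called. These 3 genes had no overlap between groups, but they were named for having the largest falls among the called genes of the list. Over all genes 16.5% had every siGATA2 value below every siControl value. Also called lower were LIF (-1.80, or -1.04 as the mean over its probes), KITLG (-1.65), BAX (-1.22), BBC3 (-1.04), BID (-0.94) and APAF1 (-0.77). The higher pair was TNFRSF10C, a decoy receptor for TRAIL, at 7.93, 7.79, 8.14 and 8.10 against 7.70, 7.50, 7.43 and 7.34 (0.50, adjusted p = 0.0227), and NINJ1, a protein of plasma membrane rupture, at 17.23, 17.19, 17.27 and 17.39 against 16.75, 16.86, 16.71 and 16.82 (0.49, adjusted p = 0.00725). Under spike-in scaling NINJ1 turned to -0.37 and TNFRSF10C stood at 0.06, and neither was called. With siControl array 1 left out, that scaling called 9 genes of this list lower and 0 higher. Of all genes 15.1% were then lower and 6.20% higher.

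Regulators upstream of p53 were split. Of 20 kinases, ubiquitin ligases, acetyltransferases and binding partners, 7 were lower, 3 higher and 10 not called, with a median log2 fold change of -0.07, beside 14.2% lower and 12.3% higher among all genes. The share called higher was near that of all genes, so the higher genes are given as values only. The kinases CHEK1 and CHEK2 had the lowest log2 fold changes of the list. CHEK1 was at 8.05, 7.96, 8.36 and 8.47 on the arrays labelled siGATA2 and at 9.95, 10.66, 10.76 and 10.63 in siControl (log2 fold change -2.29, SE 0.210, adjusted p = 0.000164), and CHEK2 at 9.22, 9.07, 8.97 and 8.96 against 10.53, 10.73, 10.82 and 10.67 (-1.63, SE 0.111, adjusted p = 4.41e-05). PML, the protein of the nuclear bodies that bear its name, was at 11.27, 11.19, 10.65 and 10.61 against 11.96, 11.93, 11.95 and 11.93 (-1.02, SE 0.175, adjusted p = 0.00369). PPP1R13L, the inhibitor of p53 called iASPP, was at 11.32, 11.37, 11.22 and 11.13 against 10.32, 9.95, 9.97 and 9.99 and was called higher (1.20, SE 0.122, adjusted p = 0.000266). TP53BP1, a damage response scaffold, was at 12.20, 12.26, 11.95 and 11.92 against 11.62, 11.31, 11.41 and 11.36 (0.66, SE 0.127, adjusted p = 0.00650). ATR, the kinase of the replication checkpoint, was at 13.03, 13.01, 12.78 and 12.82 against 12.56, 12.37, 12.30 and 12.32 (0.52, SE 0.113, adjusted p = 0.0111). None of the 6 named regulators had overlapping groups, but they were named for having the largest changes among the called genes. Over all genes the siGATA2 values lay wholly below siControl for 16.5% and wholly above for 16.2%. Under spike-in scaling the calls of PPP1R13L (0.60, adjusted p = 0.603), TP53BP1 (0.02) and ATR (-0.13) were lost. With siControl array 1 left out, that scaling called 7 regulators lower and 1 higher. Of all genes 15.1% were then lower and 6.20% higher.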

How the data were processed

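RNA of LNCaP cells taken 72 h after transfection (30 nM siRNA) was measured on 4 arrays per group, with groups and replicate numbers as labelled. The authors deposited the spot intensity written by Agilent Feature Extraction 11.0.1.1, and a log2 matrix of the same arrays, whose columns all have a median of 7.45 and correlate at 0.985 or above with their own array. The design number in the array files differs from that in the paper's methods. Spots marked as outliers were left out, log2 processed signals were averaged per probe, and limma 3.58.1 (R 4.3.3) applied quantile normalization to all 8 arrays together. As in the methods of the paper, unannotated probes and those whose mean was under 3 were removed, leaving 35514. Each gene was read from its brightest probe. Of 42405 probes, 26364 were named through RefSeq accessions (GRCh38.p14). lmFit and eBayes tested siGATA2 minus siControl with Benjamini-Hochberg adjustment over all 28850 genes, and limma replaced the t-test of the methods, which was kept as an alternative.

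The members and gene lists were chosen with earlier results of these data known, so no p-value is given for a list. Values on every array are given for the 3 called members of each class with the largest change, every member called higher, CDKN1A, and the 3 called genes of the other lists with the largest change in each direction. Members singled out after their values were seen are named as such. Alternatives were other scalings, filters, background correction, probe rules, models and left-out arrays. The title letters as a block, the D to G arrays alone and spike-in scaling without siControl array 1 were chosen after seeing the data. The 4 arrays per group limit the precision, and no spot was saturated. Some of the luminal markers are not reported here.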

Additional observations from a re-analysis of the deposited data

Results flagged for a closer look

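In 7 of the 70 groups of 4 values examined over the members, a single array lay far from the other 3 by Dixon's criterion, which chance meets in about 1 in 20 groups. It was siControl array 1 in all 7. The gap to the nearest array, as a share of the group's whole range, was 0.899 for MDM4, 0.898 for XPC, 0.918 for PLK3, 0.922 for PHLDA3, 0.888 for TRIAP1, 0.867 for SUSD6 and 0.941 for PIDD1. On that array PIDD1 read 14.43 against 13.51 to 13.57 on the other siControl arrays, MDM4 read 12.15 against 11.13 to 11.23, PLK3 read 11.44 against 11.02 to 11.05 and SUSD6 read 12.32 against 11.85 to 11.91. The other 3 genes were lower there, PHLDA3 at 11.77 against 12.68 to 12.75, TRIAP1 at 11.42 against 12.30 to 12.41 and XPC at 10.42 against 10.61 to 10.63. The same array had the lowest E1A spike-in signal and is the siControl array whose title carries the letter B. Without it XPC, PLK3 and PHLDA3 were still called lower, and TRIAP1 became lower at -0.80 (adjusted p = 0.0348 from limma).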

How the results depend on the processing

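Of the 24 other settings, all gave a negative median for the members. The number called lower, 21 as reported, was 14 with spike-in scaling, 18 with slide row as a block, 25 with the letter block, 26 with letters D to G only, 27 with array weights and 20 to 22 in the other settings on all arrays or chosen arrays. Over all genes 10.4% were lower with slide row as a block and 12.3% to 15.5% in those other settings. With 1 array left out the number of members called lower ran from 19 to 22, where 11.2% to 15.5% of all genes were lower. Then 14 to 15 members were lower by at least 2-fold, as were 1905 to 2178 of the 28850 genes. The median log2 fold change of the members ran from -0.89 to -0.69. The number called higher, 1 as reported, was 2 with 75th percentile scaling, normexp and the methods' t-test, 3 with the mean over probes, the title letters as a block and letters D to G only, 4 with array weights (28.0% of all genes higher and 26.3% lower) and 0 with spike-in scaling (limma), where GADD45B lost its call. With letters D to G only, 23.9% of all genes were higher and 19.5% lower. Of all genes 14.1% were higher with 75th percentile scaling, 13.4% with normexp and 11.8% with the methods' t-test. The share was 12.3% with the mean over probes and 0.489% with spike-in scaling. The median was -1.43 with spike-in scaling, -1.06 with that scaling without siControl array 1, -0.98 with array weights, -0.94 with siControl arrays 2 and 4 only and -0.67 with the letter block. CCNG1 lost its call with spike-in scaling (-1.43), slide row as a block (-0.75) and the methods' t-test (adjusted p = 0.0560), and without siGATA2 array 1 (-0.69) or 2 (-0.71) and without siControl array 2 (-0.67), 3 (-0.77) or 4 (-0.75). FBXO22 lost it with spike-in (-1.27) and 75th percentile scaling (-0.66), slide row as a block (-0.64), no filter on dim probes, the mean over probes and the methods' t-test, and without any 1 array other than siControl array 1 (-0.69 to -0.55), and RPS27L with slide row as a block (-0.63). TNFRSF10A, EDA2R, XPC, RPS27L and PLK3 lost theirs with spike-in scaling. Among the members and CDKN1A, signs turned only in genes that were not called. PIDD1 was -0.04 with 75th percentile scaling, -0.64 with spike-in scaling, -0.05 with that scaling without siControl array 1, -0.15 with slide row as a block, -0.30 with the letter block, -0.66 with letters D to G only, where it was called lower, and -0.25 to 0.41 with 1 array left out, and with array weights it was called higher, at 0.91. Spike-in scaling turned MDM4 to -0.35, TP53INP1 to -0.17, ACER2 to -0.21 and CDKN1A to -0.42. SUSD6 was 0.26 with array weights, 0.02 with siControl arrays 2 and 4 only and -0.21 to 0.05 with 1 array left out. CDKN1A was -0.22 with spike-in scaling without siControl array 1, -0.41 with array weights, -0.12 with siControl arrays 2 and 4 only and -0.06 to 0.40 with 1 array left out. The cause of these shifts was not tested.

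The same-numbered arrays correlated at 0.5372, -0.3102, 0.1702 and 0.2241 in their deviations from the group means. These few values cannot decide whether the replicate numbers pair the arrays. The title letters B and F occur in both groups, and a pairing by single letters was not tested. With the replicate number as a block, 21 members were lower, 1 was higher, 15 were lower by at least 2-fold and the median was -0.79. Over all 28850 genes 12.9% were then lower and 11.7% higher, and 2082 genes were lower by at least 2-fold.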
